A study of Homo sapiens with 10 samples.

Results

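Genes of cholesterol and fatty acid synthesis were examined in hTERT RPE-1 cells (human retinal pigment epithelium, immortalised by telomerase) by RNA sequencing of 10 libraries. The set held 30 genes of the pathway that sterol regulatory element binding proteins (SREBPs) control. They were picked by gene name from the deposited count table, in which 29 of the 30 were found among 40664 genes; NSDHL was not analysed here. The libraries came from 4 groups: siNemp1 cells on a 10 kPa substrate (n = 2), control cells on 10 kPa (n = 2), siNemp1 cells on 120 kPa (n = 3) and control cells on 120 kPa (n = 3). All 4 groups were the same line, and siNemp1 names an siRNA against NEMP1, a protein of the inner nuclear membrane. The labels give neither the siRNA sequences, the control treatment nor the time in culture. The study asked how cells respond to the stiffness of their matrix and what NEMP1 contributes. Values are CPM, the count of a gene scaled to a common library size, and fold changes are log2 values, positive where siNemp1 was above control or 120 kPa above 10 kPa.

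SREBPs are made as membrane precursors in the endoplasmic reticulum, where SCAP escorts them and the INSIG proteins hold them back when sterols are plentiful. When sterols run low, SCAP carries the precursor to the Golgi, proteases release its active part, and this part enters the nucleus and switches on genes of sterol and fatty acid synthesis. SREBF2 mainly drives the sterol genes and SREBF1 the fatty acid genes, and liver and cultured dividing cells both depend on the pathway for membrane lipid.

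SREBPs bind the sterol regulatory element, often beside boxes for the factors NF-Y and Sp1, so the letters before the starts of the genes were read. RefSeq promoter windows of 300 bases (build GRCh38.p14) were found for 25 of the measured members, as 34 windows. The element's core TCACNCCAC, searched on both strands, was found in 1 of the 25, SREBF2, and in 1.39% of 27303 genes. A core shorter by its first base, CACNCCAC, chosen after the data were seen, was found in 6 members (INSIG1, IDI1, SC5D, SREBF2, SCD and ACACA) and in 7.05% of genes. The NF-Y box CCAAT was found in 18 of 25 members and 39.7% of genes, the Sp1 box GGGCGG in 25 of 25 and 48.3%, and the E-box CACGTG in 4 of 25 and 8.78%. These shares are over all genes with a window, whether or not they were expressed here. No share over expressed genes alone is given. The 150 bases before the start are printed 5′ to 3′ on the gene's strand for SREBF2, the member with the core, and for 5 members whose levels carry the results. Where a gene had several windows, the one printed begins a transcript that GENCODE lists; the short core of IDI1 lies in another of its 3 windows, and its printed stretch holds none. Capitals mark either core or an NF-Y box, in which ATTGG is CCAAT read from the other strand. A match is a description of letters and not a bound site.
SREBF2 chr22:41832955-41833104, + strand: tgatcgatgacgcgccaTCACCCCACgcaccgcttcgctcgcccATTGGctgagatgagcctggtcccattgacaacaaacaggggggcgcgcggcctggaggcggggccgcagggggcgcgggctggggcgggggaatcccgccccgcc
MSMO1 chr4:165327519-165327668, + strand: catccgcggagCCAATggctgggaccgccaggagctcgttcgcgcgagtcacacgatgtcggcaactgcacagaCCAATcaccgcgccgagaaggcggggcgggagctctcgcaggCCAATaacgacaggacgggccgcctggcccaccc
IDI1 chr10:1049120-1049269, - strand: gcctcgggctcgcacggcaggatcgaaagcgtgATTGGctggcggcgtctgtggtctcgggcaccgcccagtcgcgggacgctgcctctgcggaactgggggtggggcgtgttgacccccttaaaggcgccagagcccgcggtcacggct
INSIG2 chr2:118088321-118088470, + strand: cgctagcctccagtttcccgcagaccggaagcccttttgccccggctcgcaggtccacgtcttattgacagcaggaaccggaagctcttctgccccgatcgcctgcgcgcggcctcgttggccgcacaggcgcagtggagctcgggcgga
SCD chr10:100347083-100347232, + strand: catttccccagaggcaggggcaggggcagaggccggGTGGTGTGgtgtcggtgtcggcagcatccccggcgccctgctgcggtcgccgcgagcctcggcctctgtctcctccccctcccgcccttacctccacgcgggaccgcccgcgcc
DHCR7 chr11:71448394-71448543, - strand: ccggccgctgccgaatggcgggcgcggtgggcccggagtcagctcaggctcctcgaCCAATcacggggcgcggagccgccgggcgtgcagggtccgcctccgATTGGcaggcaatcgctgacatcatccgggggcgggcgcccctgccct

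The libraries held 17.9 to 23.8 M counts each. NEMP1 stood at 8.22 and 7.63 CPM in siNemp1 libraries at 10 kPa, against 14.1 and 17.3 CPM in controls there. At 120 kPa it stood at 7.52, 6.70 and 4.11 CPM in siNemp1 libraries, against 18.3, 14.1 and 14.1 CPM in controls. The groups did not overlap at either stiffness, and edgeR's quasi-likelihood test gave −1.16 ± 0.18 (log2, SE) averaged over both (Benjamini-Hochberg adjusted p = 0.044). Of 7 epithelial markers, KRT8 and KRT18 stood at 500 to 1200 CPM, KRT7 and CLDN1 at 11 to 99.7 CPM, and KRT19, CDH1 and EPCAM at or near 0. Of 8 markers of retinal pigment epithelium, MITF, BEST1 and OTX2 stood at 18.4 to 154 CPM, PMEL at 1.51 to 3.74 CPM, and RPE65, RLBP1, TYR and TTR at or near 0. Of 6 mesenchymal markers, THY1 stood at 255 to 832 CPM and PDGFRB at 35.9 to 85.4 CPM. PDGFRA, DCN and COL1A1 stood at 4.13 to 22.9 CPM, and COL1A2 at or near 0. Leukocyte, endothelial and adipocyte markers together stayed at or under 3.64 CPM a list. Other features differed between the treatments as well. The summed level of 6 mesenchymal markers was 765 to 766 CPM in siNemp1 and 947 to 950 CPM in control libraries at 10 kPa, and 314 to 736 CPM against 690 to 908 CPM at 120 kPa. THY1 made up most of these sums, at 638 and 655 CPM in siNemp1 against 832 and 832 CPM in controls at 10 kPa. The markers did not move together there. DCN was lower in siNemp1, PDGFRB overlapped, and PDGFRA was higher (19.7 and 20.6 CPM against 16.7 and 16.8 CPM). The summed level of 10 mitotic genes was 752 and 761 CPM in siNemp1 against 861 and 852 CPM in controls at 10 kPa, and 843, 646 and 467 CPM against 870, 700 and 712 CPM at 120 kPa. Mitochondrial transcripts made up 1.48% and 1.55% of siNemp1 libraries and 1.6% and 1.54% of control libraries at 10 kPa, which overlapped, and 1.06%, 0.826% and 0.709% of siNemp1 libraries and 1.73%, 1.40% and 0.913% of control libraries at 120 kPa. With the block, averaged over stiffnesses, THY1, CENPF, KIF11 and MKI67 of the mesenchymal and mitotic lists fell (log2 fold changes of −0.73 to −0.44). The leukocyte marker CD14, at only 0.587 to 2.64 CPM, fell as well (−1.03 ± 0.28, adjusted p = 0.041 in edgeR's quasi-likelihood test). The part of these in the members' results was not tested. In bulk libraries fewer cells of one kind and less RNA per cell cannot be told apart, and the labels do not say that replicates were separate cultures, so a p-value here speaks only of library-to-library spread.

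FDFT1 and ACACA could not be measured well. FDFT1, squalene synthase, was listed at 0 to 0.588 CPM, with estimated counts between 0 and 12.6. It passed the filter on low counts through 2 control libraries at 120 kPa, so a difference from the other groups was built in. ACACA, the acetyl-CoA carboxylase that commits carbon to fatty acids, was listed at 2.98 and 6.31 CPM in siNemp1 libraries and 14.4 and 10.5 CPM in controls at 10 kPa. On the 120 kPa substrate it was listed at 0, 0.685 and 1.95 CPM in siNemp1 libraries and 10.7, 2.15 and 3.33 CPM in controls. Its siNemp1 values lay below its control values at both stiffnesses. It was listed at 0 in 1 library and its controls at 120 kPa lay far apart, and its averaged value of −1.98 ± 0.90 did not pass (log2, SE; adjusted p = 0.25 in edgeR's quasi-likelihood test with replicate number as a block). The values of both genes are given as listed. Estimated counts were not whole in 1 or more libraries for 25 of the 29 members and in all 10 libraries for 10 of them, IDI1 included (tolerance 0.005).

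Taken over both stiffnesses, and in a test blocked by replicate number, the siNemp1 libraries differed from controls in a few members in opposite directions. Levels of the sterol enzymes MSMO1 and IDI1 and of the SREBP retention protein INSIG2 were 1.25 to 1.29 times those of controls, and the level of the stearoyl-CoA desaturase SCD was 0.771 times. These 4 of 29 members passed edgeR's quasi-likelihood test blocked by replicate number. In that test 10.8% of 13990 genes passed, 6.58% higher and 4.17% lower, so the count is not read as particular to the members. With trends in transcript length and GC content removed as well, none of the 4 passed (adjusted p = 0.070 to 0.25 in edgeR's quasi-likelihood test). Without the block, 0 members passed and 1.29% of genes did; 2763 genes and 9 members had an unadjusted p under 0.05 there, and DESeq2 called 0 members among 967 genes (4.11%). Single pairs of libraries at 120 kPa decided these calls in edgeR's quasi-likelihood test. Without the replicate 2 pair SCD alone passed (adjusted p = 0.049), while INSIG2, IDI1 and MSMO1 had 0.30 ± 0.07, 0.33 ± 0.09 and 0.29 ± 0.09 (adjusted p = 0.065 to 0.094). Without the replicate 3 pair INSIG2, IDI1, MSMO1 and DHCR7 passed and SCD did not (adjusted p = 0.054). Without the replicate 1 pair 11 members passed, and the common dispersion, edgeR's shared measure of spread, was 0.0108 against 0.0221 with all pairs. The share of all genes passing in these fits is not given, so their counts are not read as particular to the members. The blocked values are given because at 120 kPa same-numbered libraries of both treatments shared deviations from their group means. The block also tied equal replicate numbers across the 2 stiffnesses, and replicate 3 existed only at 120 kPa. Whether a number shares anything between stiffnesses was not tested. Ranges of all 5 siNemp1 and all 5 control libraries were apart for 0 members in either direction (2.54% of genes higher, 1.97% lower). The median log2 fold change of the 29 members in the test without the block was −0.12, against −0.00 for all genes and −0.07 without FDFT1 and ACACA.

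**Figure D1:**
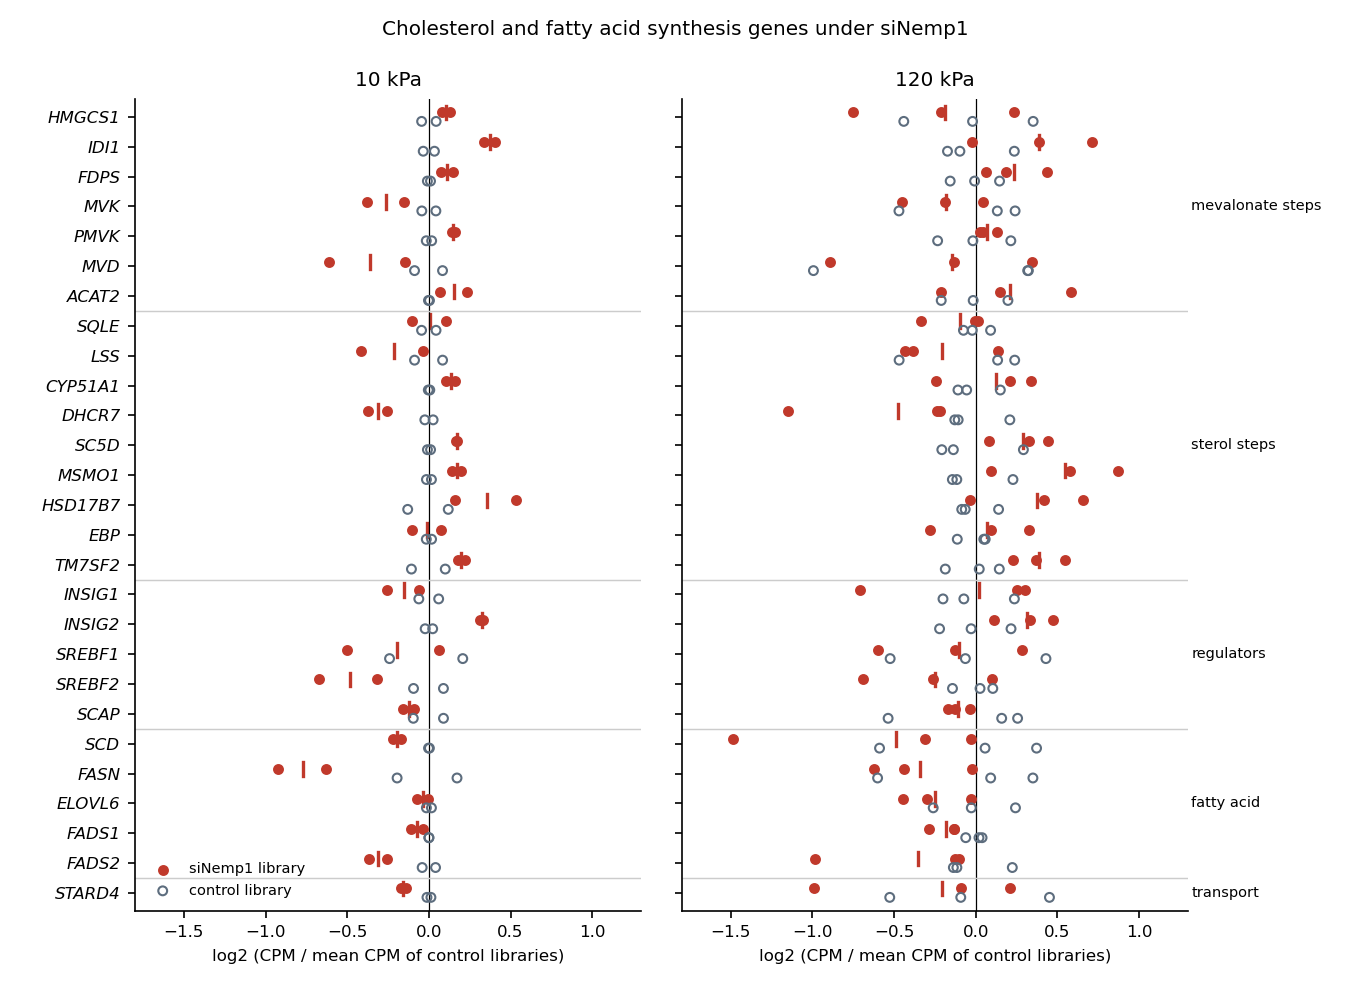
Level of each of 27 members (FDFT1 and ACACA left out) in every siNemp1 library (filled) and control library (open), as log2 of its CPM over the mean CPM of the control libraries at the same stiffness; a red tick marks the log2 of the mean siNemp1 CPM over that mean. At 10 kPa the paired libraries lay close together, and at 120 kPa the siNemp1 libraries of SCD and DHCR7 reached 252 and 71.8 CPM (replicate 3), below every control library.

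The mevalonate steps build the isoprene units of sterols, and their members were split. IDI1, which interconverts the isoprene building blocks, stood at 29.3 and 27.8 CPM in siNemp1 libraries at 10 kPa, against 21.5 and 22.6 CPM in controls. Its level at 120 kPa was 36.9, 29.4 and 22.2 CPM in siNemp1 libraries, against 26.5, 21.1 and 19.97 CPM in controls. The groups were apart at 10 kPa and overlapped at 120 kPa, where siNemp1 replicate 3 lay among the controls. IDI1 rose by 0.37 ± 0.10 (log2, SE; adjusted p = 0.040 by edgeR's quasi-likelihood test with the block, 0.18 without). Of the other 6 mevalonate members, FDPS, PMVK and ACAT2 had positive log2 fold changes of 0.11 to 0.17 and HMGCS1, MVK and MVD negative ones of −0.23 to −0.05, and none of them passed. HMGCS1, which makes the precursor of mevalonate, stood at 52.1 and 53.8 CPM in siNemp1 against 50.8 and 47.8 CPM in control libraries at 10 kPa.

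Among the sterol steps, MSMO1 was the member that passed. It removes methyl groups from the sterol ring, and its level was 88.1 and 85.0 CPM in siNemp1 libraries at 10 kPa, against 77.8 and 76.1 CPM in controls. At 120 kPa it was 151, 123 and 88.1 CPM in siNemp1 libraries, against 96.5, 74.7 and 76.1 CPM in controls. All 3 siNemp1 libraries exceeded their same-numbered controls, and only siNemp1 replicate 3 lay within the control range. No share of all genes with this order is given. MSMO1 rose by 0.35 ± 0.09 averaged over stiffness (adjusted p = 0.039 with the block in edgeR's quasi-likelihood test, 0.19 without). TM7SF2, a sterol reductase of the nuclear envelope and endoplasmic reticulum, stood at 43.6 and 42.3 CPM in siNemp1 libraries at 10 kPa, against 40.1 and 34.7 CPM in controls, and at 44.2, 49.9 and 40.0 CPM in siNemp1 libraries at 120 kPa, against 30.1, 37.8 and 34.7 CPM in controls. It was the 1 member whose siNemp1 libraries lay above the controls at both stiffnesses, which 8.01% of genes did, and its log2 fold change of 0.29 ± 0.10 did not pass (adjusted p = 0.076 with the block in edgeR's quasi-likelihood test).

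DHCR7, which makes cholesterol in a last reduction, went the other way. Its level was 160 and 147 CPM in siNemp1 libraries at 10 kPa, against 194 and 187 CPM in controls. On the 120 kPa substrate it was 137, 135 and 71.8 CPM in siNemp1 libraries, against 148, 184 and 146 CPM in controls. Its averaged log2 fold change of −0.42 ± 0.12 did not pass (adjusted p = 0.05 after rounding with the block in edgeR's quasi-likelihood test, 0.23 without). The groups did not overlap at either stiffness; DHCR7, FADS1 and ACACA were the 3 members lower without overlap at both, which 4.83% of genes were. Of the sterol members not yet named, SC5D, HSD17B7, CYP51A1 and EBP had positive log2 fold changes of 0.02 to 0.35 and LSS and SQLE of −0.20 and −0.05, and none of them passed. HSD17B7, a ketosteroid reductase, was the largest of these at 0.35 ± 0.13 (adjusted p = 0.12 by edgeR's quasi-likelihood test with the block).

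Of the 5 regulators, the siNemp1 libraries had more INSIG2 and the other 4 had negative log2 fold changes. INSIG2 stood at 50.7 and 51.3 CPM in siNemp1 libraries at 10 kPa, against 41.4 and 40.1 CPM in controls. Its level at 120 kPa was 58.9, 53.5 and 45.9 CPM in siNemp1 libraries, against 49.3, 41.7 and 36.4 CPM in controls. The groups were apart at 10 kPa and overlapped at 120 kPa, where each siNemp1 library exceeded its same-numbered control. The share of all genes with that order is not given. INSIG2 rose by 0.32 ± 0.08 (adjusted p = 0.025 with the block in edgeR's quasi-likelihood test, 0.13 without). INSIG1, the retention protein that SREBPs themselves induce, showed no such order, at 45.2 and 39.4 CPM in siNemp1 against 45.1 and 49.0 CPM in controls at 10 kPa, and 49.8, 48.1 and 24.7 CPM against 35.1, 47.6 and 38.4 CPM at 120 kPa. SREBF2, the sterol branch's own transcription factor, stood at 22.4 and 17.5 CPM in siNemp1 libraries at 10 kPa, against 29.7 and 26.2 CPM in controls. At 120 kPa it stood at 16.7, 21.4 and 12.3 CPM in siNemp1 libraries, against 18.1, 21.4 and 20.3 CPM in controls. The groups were apart at 10 kPa and overlapped at 120 kPa, and the averaged value of −0.38 ± 0.14 did not pass (adjusted p = 0.11 with the block in edgeR's quasi-likelihood test). SREBF1 and SCAP both had −0.11 and adjusted p of 0.80 and 0.67 in that test.

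All 6 fatty acid members, ACACA included, had negative log2 fold changes with a median of −0.36 (−0.35 without ACACA), and 1 of them passed. SCD, which puts the double bond into saturated fatty acids, had the highest level per kilobase of the members. It stood at 745 and 769 CPM in siNemp1 libraries at 10 kPa, against 865 and 868 CPM in controls. On the 120 kPa substrate it stood at 692, 570.3 and 252 CPM in siNemp1 libraries, against 915, 735 and 469.6 CPM in controls. The groups were apart at 10 kPa and overlapped widely at 120 kPa, where each siNemp1 library was lower than its same-numbered control. How many of all genes had that order is not given. SCD fell by 0.37 on the log2 scale ± 0.10 (adjusted p = 0.036 by edgeR's quasi-likelihood test with the block, 0.51 without).

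FASN, the fatty acid synthase, stood at 5.75 and 4.70 CPM in siNemp1 libraries at 10 kPa, against 7.78 and 10.0 CPM in controls. Its level at 120 kPa was 5.16, 7.82 and 5.88 CPM in siNemp1 libraries, against 5.25, 8.48 and 10.2 CPM in controls. FADS2, a desaturase of polyunsaturated fatty acids, stood at 124 and 115 CPM in siNemp1 libraries at 10 kPa, against 152 and 144 CPM in controls, and at 108, 109 and 59.1 CPM in siNemp1 libraries at 120 kPa, against 108, 137 and 107 CPM in controls. FASN and FADS2 were apart between groups at 10 kPa and overlapped at 120 kPa, and neither passed averaged over stiffness (−0.52 ± 0.18 and −0.35 ± 0.11, adjusted p = 0.081 and 0.073 with the block in edgeR's quasi-likelihood test). FADS1, its neighbour and partner desaturase, stood at 263 and 277 CPM in siNemp1 and 283.4 and 283.5 CPM in control libraries at 10 kPa, and at 247, 246 and 222 CPM in siNemp1 and 259, 278 and 274 CPM in control libraries at 120 kPa. Its groups did not overlap, but the difference was small (−0.13 ± 0.07) and did not pass. ELOVL6, which lengthens palmitate, had −0.14 ± 0.07, and the sterol carrier STARD4 had −0.20 ± 0.11; neither passed.

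**Figure D2:**
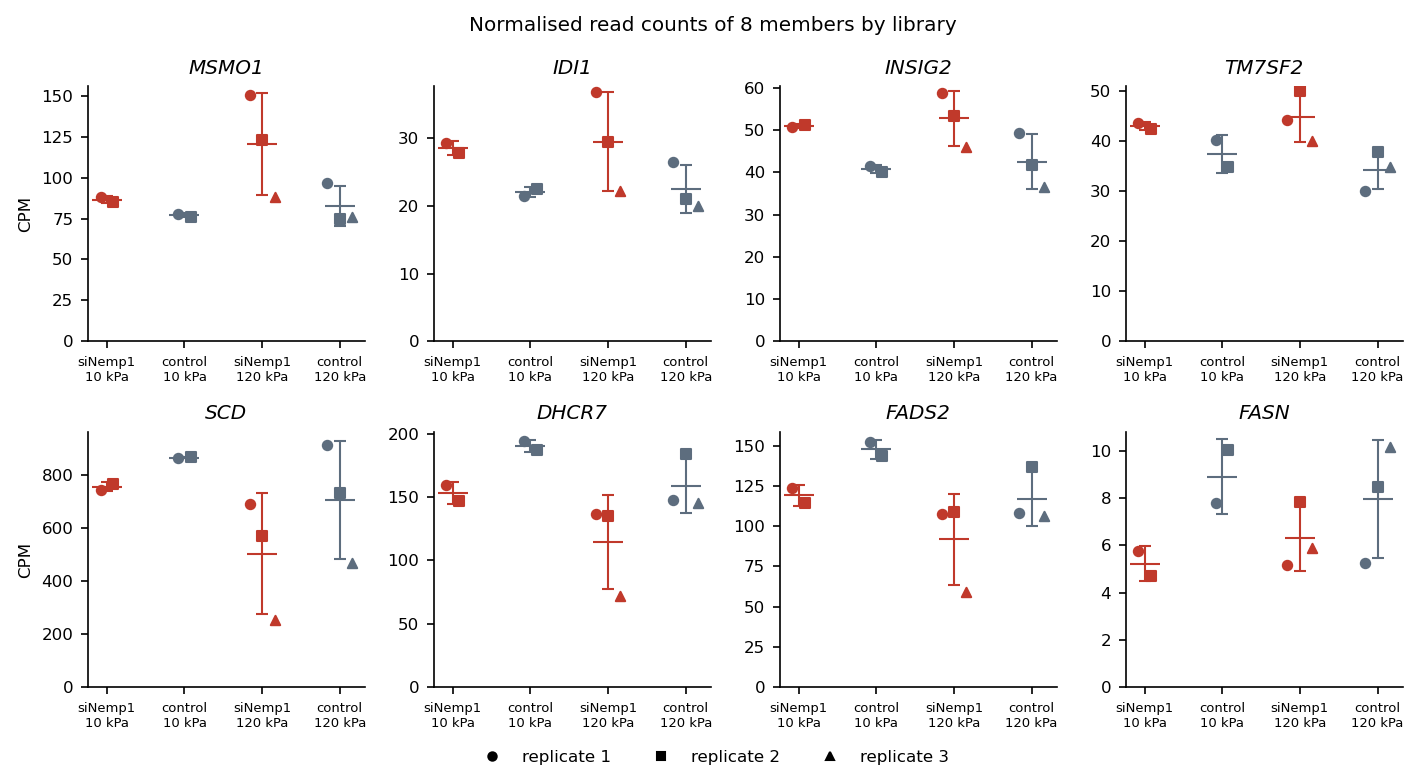
CPM of 8 members in each library (points, with 1 symbol per replicate number), with the mean and SD of each group (bars), siNemp1 left of control at each stiffness. The 4 members in the upper row averaged higher in siNemp1 and the 4 in the lower row lower, and siNemp1 replicate 3 at 120 kPa had the lowest value of its group in all but FASN.

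At 120 kPa alone, 2 members passed with the block, where 8.75% of 13990 genes did, 6.24% higher and 2.51% lower. MSMO1 rose by 0.52 ± 0.12 and SCD fell by 0.56 ± 0.13 on the log2 scale (both adjusted p = 0.022 in edgeR's quasi-likelihood test). Without the block 0 members and 0 genes passed, with 2413 genes and 5 members at an unadjusted p under 0.05, and DESeq2 called 642 genes (2.73%) and 0 members. Groups of all 3 against all 3 libraries did not overlap for 1 member higher (TM7SF2; 10.9% of genes) and 3 lower (DHCR7, ACACA and FADS1; 6.95%). Both calls depended on single pairs of libraries. Without the replicate 2 pair neither passed (MSMO1 0.42 ± 0.12, adjusted p = 0.12, and SCD −0.66 ± 0.13, adjusted p = 0.072, edgeR's quasi-likelihood test), and without the replicate 3 pair MSMO1 passed at 0.64 ± 0.12 (adjusted p = 0.023) and SCD did not (−0.43 ± 0.13, adjusted p = 0.076). Without the replicate 1 pair, DHCR7 at −0.74 ± 0.12 and FADS2 at −0.60 ± 0.12 passed as well (adjusted p = 0.008 and 0.012).

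At 10 kPa the siNemp1 and control libraries lay close to their own group. In the test over all 10 libraries 0 members passed, with 0 genes without the block and 0.0286% of genes with it; 850 genes and 1 member had an unadjusted p under 0.05 without it, and DESeq2 called 17 genes (0.0722%) and 0 members. Fitted on the 4 libraries at 10 kPa alone, in which the common dispersion was 0.00423 against 0.0387 over all libraries, 7 of 28 members passed, beside 17.3% of 13345 genes. INSIG2 (0.31 ± 0.08, adjusted p = 0.0062) and IDI1 (0.36 ± 0.10, adjusted p = 0.013) rose, where 8.10% of genes did. DHCR7 (−0.33 ± 0.06), FADS2 (−0.32 ± 0.06), FASN (−0.77 ± 0.19), SREBF2 (−0.49 ± 0.12) and SCD (−0.21 ± 0.05) fell, where 9.19% of genes did, with adjusted p between 0.00048 and 0.0097 in edgeR's quasi-likelihood test. MSMO1 did not pass there (0.16 ± 0.06, adjusted p = 0.092). Groups of 2 against 2 did not overlap for 11 members higher and 10 lower, and for 28.8% and 28.5% of genes, so with 2 libraries a group this separation was common. That the dispersion of this pair of groups can stand for new cultures was not tested.

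The 2 stiffnesses used separate libraries, and 24 of 29 members had the same sign of difference in both (82.8%, against 70.4% of all genes). Of these, 10 were higher in siNemp1 at both: ACAT2, CYP51A1, FDPS, HSD17B7, IDI1, INSIG2, MSMO1, PMVK, SC5D and TM7SF2. The 14 lower at both were ACACA, DHCR7, ELOVL6, FADS1, FADS2, FASN, LSS, MVD, MVK, SCAP, SCD, SREBF1, SREBF2 and STARD4. The knockdown difference at 120 kPa minus that at 10 kPa passed for 0 members and 0.00715% of genes in edgeR's quasi-likelihood test; 235 genes and 0 members had an unadjusted p under 0.05, and DESeq2 called 3 genes (0.0127%) and 0 members. The blocked test gave 0 members beside 0.0286% of genes. Errors were wide: MSMO1 differed by 0.38 ± 0.28 and FASN by 0.43 ± 0.41 (log2, SE).

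GC content of the transcript went with the direction. The 10 members higher at both stiffnesses had a median GC content of 41.6% in their longest transcript, and the 14 lower at both 58.2%, with overlapping ranges of 35.4 to 64.2% and 34.2 to 65.3%. Over 27 members (without FDFT1 and ACACA), Pearson's r between GC content and the averaged log2 fold change was −0.47 with the block, against −0.13 over 13826 genes, as a description over genes that share libraries. With trends in length and GC content removed from each library, r over the members was −0.13, and the calls changed. MSMO1 no longer passed (0.16 ± 0.08, adjusted p = 0.25), nor did INSIG2 (0.15 ± 0.06, adjusted p = 0.17), IDI1 (0.28 ± 0.09, adjusted p = 0.070) and SCD (−0.31 ± 0.10, adjusted p = 0.078), while DHCR7 at −0.37 ± 0.09 (adjusted p = 0.030) and TM7SF2 at 0.33 ± 0.08 (adjusted p = 0.035) passed in edgeR's quasi-likelihood test, where 7.21% of genes did.

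At 120 kPa the same correction with the block left 2 members, both lower: DHCR7 (−0.48 ± 0.11, adjusted p = 0.028) and SCD (−0.47 ± 0.12, adjusted p = 0.045), beside 7.74% of genes; MSMO1 had 0.33 ± 0.10 (adjusted p = 0.063, edgeR's quasi-likelihood test). On the 4 libraries at 10 kPa it left 5 of 28 members, beside 12.8% of genes: TM7SF2 higher (0.28 ± 0.08) and DHCR7, SREBF2, SCD and FADS2 lower (−0.33 to −0.16), with adjusted p of 9e-04 to 0.044 in edgeR's quasi-likelihood test. DHCR7 thus passed under the correction at 120 kPa and averaged over stiffnesses (both with the block) and in the 4 libraries at 10 kPa, and SCD at 120 kPa and in those 4 libraries. Without the block, over all 10 libraries, the correction left 0 members, beside 0.0429% of genes at 120 kPa, 0 at 10 kPa and 0.472% averaged. In the 4 libraries at 10 kPa alone, MSMO1 had −0.04 ± 0.06 under the correction. The source of the GC trend was not tested.

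**Figure D3:**
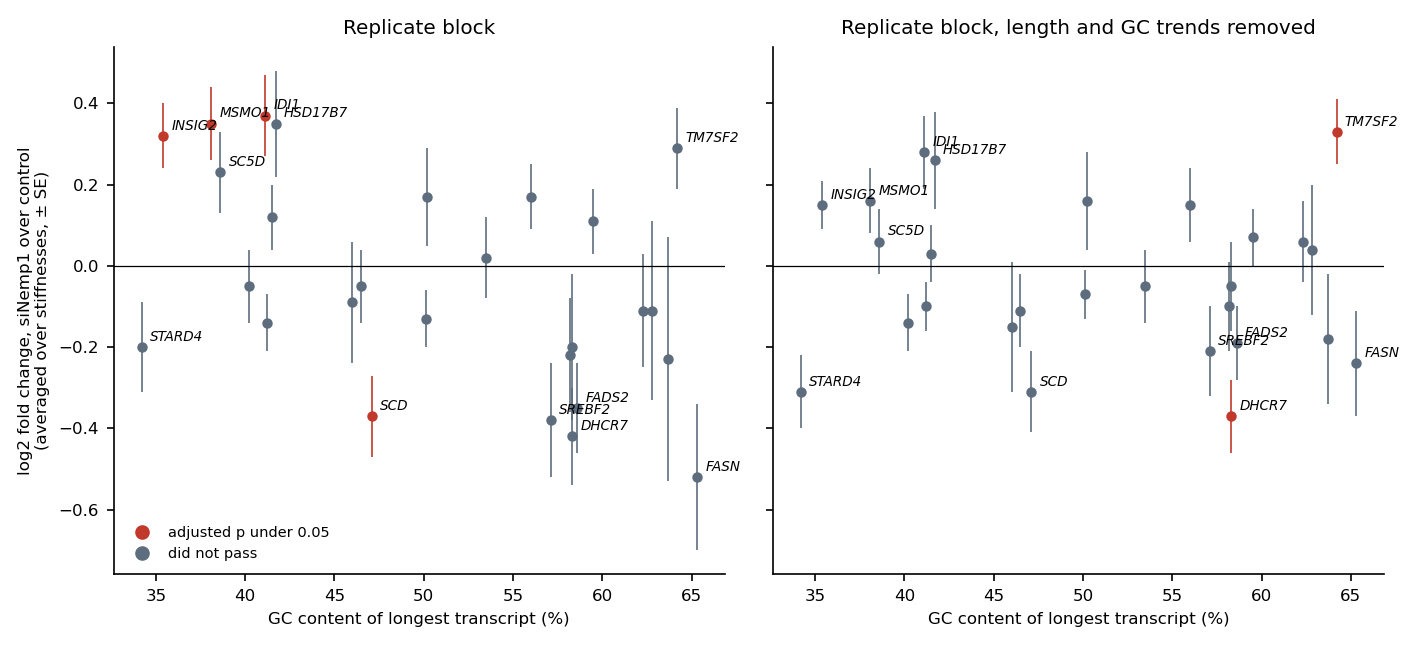
Log2 fold change of 27 members, siNemp1 over control averaged over stiffnesses (points, bars are SE), against the GC content of the longest transcript, with the replicate block (left) and with length and GC trends removed as well (right). Red marks an adjusted p under 0.05: INSIG2, MSMO1, IDI1 and SCD on the left, DHCR7 and TM7SF2 on the right.

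With the filter on low counts, substrate stiffness gave no call among the members. On average the 120 kPa libraries were below the 10 kPa libraries in SCD and DHCR7 and above them in MSMO1 in siNemp1 cells, and below them in SREBF2, FADS2 and DHCR7 in control cells, but none of these differences passed. Without that filter SCD fell at 120 kPa in siNemp1 cells (−0.59 ± 0.17, adjusted p = 0.025) and averaged over treatments (−0.45 ± 0.12, adjusted p = 0.0093, edgeR's quasi-likelihood test), as did ACACA in both and in controls. The share of all genes passing in that fit is not given. With the filter SCD had similar changes and wider errors, −0.58 ± 0.36 and −0.44 ± 0.26 (adjusted p = 0.53 and 0.43 in that test). With the filter and the block SCD had −0.35 ± 0.14 and −0.17 ± 0.11 (adjusted p = 0.39 and 0.57 in that test). SREBF2 in controls was 18.1, 21.4 and 20.3 CPM at 120 kPa, against 29.7 and 26.2 CPM at 10 kPa, without overlap (−0.49 ± 0.21, adjusted p = 0.99 in edgeR's quasi-likelihood test). MSMO1 in siNemp1 cells was 151, 123 and 88.1 CPM at 120 kPa, against 88.1 and 85.0 CPM at 10 kPa (0.48 ± 0.20, adjusted p = 0.40, and 0.58 ± 0.14, adjusted p = 0.15 with the block, in edgeR's quasi-likelihood test). DHCR7 was lower at 120 kPa without overlap in both treatments.

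Over all genes, the stiffness comparison passed for 0 genes in siNemp1 cells, 0.0143% in controls and 0 genes averaged over treatments in edgeR's quasi-likelihood test, and with the block for 0.0143%, 0.0214% and 0 genes, with 0 members each time. At an unadjusted p under 0.05 there were 1655, 569 and 2200 genes, with 2 members each, and DESeq2 called 98, 12 and 497 genes (0.416%, 0.051% and 2.11%) and 0 members; these are unblocked tests, in the order siNemp1 cells, controls and averaged. Ranges did not overlap for 3 members higher in siNemp1 cells at 120 kPa (FDPS, SC5D and MSMO1; 18.2% of genes) and 6 lower (DHCR7, SCAP, SCD, ACACA, FADS1 and FADS2; 15.5%). In controls 1 was higher (FDFT1; 10.3%) and 4 lower (DHCR7, SREBF2, FADS1 and FADS2; 11.9%). The labels give no batch, and the substrates carried different numbers of replicates. The block, which ties replicate numbers across substrates, changed stiffness values. For SCD in controls the value was −0.29 ± 0.36 without it and 0.01 ± 0.15 with it.

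The libraries at 120 kPa differed among themselves in both treatments, and several members differed between replicate numbers in the same way in both. HMGCS1 stood at 56.8, 41.7 and 28.7 CPM in siNemp1 replicates 1, 2 and 3, against 61.6, 47.6 and 35.6 CPM in controls. STARD4 stood at 23.2, 18.8 and 10.1 CPM in siNemp1 replicates, against 27.4, 18.8 and 13.9 CPM in controls. HMGCS1, SCD and STARD4 were lower in replicate 3 than in replicate 1 by over 0.5 log2 in both treatments, which 5.91% of genes were. MVD, which decarboxylates mevalonate diphosphate, went the other way, at 7.32, 17.3 and 12.4 CPM in siNemp1 replicates and 6.84, 17.0 and 17.0 CPM in controls. In all, 15 members were lower in replicate 3 in both treatments (51.7%, against 34.3% of genes) and 6 higher (20.7%, against 36.3%). For INSIG1, DHCR7 and FADS2 the treatments were unlike. The log2 ratio of replicate 3 to replicate 1 (of CPM plus 0.5) was −1.0, −0.92 and −0.86 for these genes in siNemp1, against 0.13, −0.02 and −0.02 in controls; this difference was not tested.

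**Figure D4:**
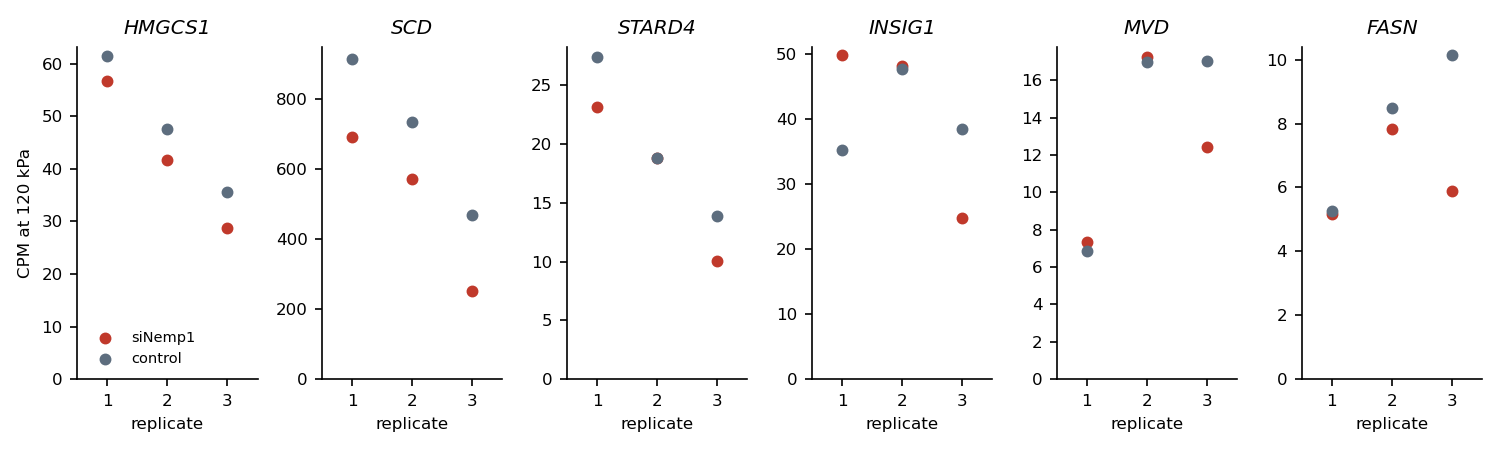
CPM of 6 members at 120 kPa by replicate number in siNemp1 (red) and control (grey) libraries. HMGCS1, SCD and STARD4 were lowest in replicate 3 in both treatments, while MVD was lowest in replicate 1 in both.

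Per kilobase of longest transcript, SCD averaged 128 CPM over the 10 libraries, with a range of 47.0 to 171, followed by FDPS at 66.5, EBP at 63.7, FADS1 at 58.2 and DHCR7 at 56.6 CPM per kilobase. The ranges of these 5 overlapped. Apart from FDFT1 and ACACA, the lowest averages were FASN at 0.829, SREBF1 at 0.922, SCAP at 3.12 and SREBF2 at 3.61 CPM per kilobase. The sterol and mevalonate enzymes summed to 953 and 959 CPM in siNemp1 libraries at 10 kPa, against 956 and 934 CPM in controls, and to 1141, 1027 and 785 CPM in siNemp1 libraries at 120 kPa, against 963, 928 and 903 CPM in controls. The siNemp1 libraries at 120 kPa thus spanned both sides of the controls, with replicate 3 lowest. The genes whose log2 CPM was most like the mean standardised log2 CPM of the 17 enzymes, FDFT1 included, over the 10 libraries were C8orf48 (Pearson's r 0.96), OR2T32P (0.95), GLT8D1 and TWSG1 (both 0.93). Without FDFT1 they were ATP2C1 and GLT8D1 (both 0.94), C8orf48 (0.93), URM1 and TWSG1 (both 0.92). Both are descriptions over points that share these libraries.

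Other genes of sterol and lipid handling were followed with the block, averaged over stiffnesses, where 10.8% of genes passed. Of 12 genes that process or degrade SREBPs, 1 rose, SEC23A, a coat protein of vesicles that leave the endoplasmic reticulum, by 0.36 ± 0.08 (adjusted p = 0.018 by edgeR's quasi-likelihood test). It stood at 163 and 153 CPM in siNemp1 against 124 and 125 CPM in control libraries at 10 kPa, and at 192, 170 and 123 CPM against 147, 119 and 106 CPM at 120 kPa. Of 26 other fatty acid and triglyceride genes, HACD3 (0.34 ± 0.07) and HSD17B12 (0.27 ± 0.07), both of very long chain elongation, rose and the phosphatidate phosphatase LPIN1 fell (−0.39 ± 0.07), with adjusted p of 0.018, 0.044 and 0.012 in that test. Of 13 isoprenoid branch genes 0 passed and 4 had an unadjusted p under 0.05, with the prenyltransferase subunit FNTA at 0.29 ± 0.09 (adjusted p = 0.054 in edgeR's quasi-likelihood test).

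Of 18 genes of sterol uptake, transport and esterification, LIPA (0.30 ± 0.08, adjusted p = 0.046) and NPC2 (0.33 ± 0.09, adjusted p = 0.034), which release cholesterol from lysosomes, rose, and the lipoprotein receptors LRP8 (−0.67 ± 0.15, adjusted p = 0.020) and LRP1 (−0.50 ± 0.12, adjusted p = 0.033) fell in edgeR's quasi-likelihood test. LRP8 stood at 7.34 and 8.13 CPM in siNemp1 against 11.3 and 12.1 CPM in control libraries at 10 kPa, and at 7.03, 6.55 and 4.07 CPM against 10.6, 8.48 and 9.52 CPM at 120 kPa. Its groups did not overlap at either stiffness. Another lipoprotein receptor of the list, VLDLR, had a positive value and did not pass (0.40 ± 0.12, adjusted p = 0.05 after rounding with the block in edgeR's quasi-likelihood test). VLDLR stood at 21.5 and 18.5 CPM in siNemp1 against 16.6 and 16.1 CPM in control libraries at 10 kPa, and at 20.8, 26.7 and 33.8 CPM against 17.3, 19.8 and 19.5 CPM at 120 kPa. Of 7 genes of the liver X receptors, which sense oxysterols, the cholesterol exporter ABCA1 fell (−0.36 ± 0.09, adjusted p = 0.028 in edgeR's quasi-likelihood test). Among genes of fatty acid oxidation, ACAA2 (0.33 ± 0.09, adjusted p = 0.041), HADHB (0.31 ± 0.08, adjusted p = 0.032) and ETFA (0.33 ± 0.07, adjusted p = 0.022), which act in the oxidation itself, and the carnitine carrier SLC25A20 (0.42 ± 0.10, adjusted p = 0.026) rose in edgeR's quasi-likelihood test. Without the block, none of these genes outside the set passed in edgeR's test, and DESeq2 called 0 to 4 genes a list.

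Some values carry a counting limit. The annotation names 8 copies after FDPS, 3 after CYP51A1, 2 after HSD17B7 and 1 each after SCD and FADS2, so that reads could be shared between them. FADS1 and FADS2 overlap on opposite strands, as do IDI1 and IDI2-AS1, SREBF2 and SREBF2-AS1, STARD4 and STARD4-AS1, ACAT2 and TCP1, and MVK and MMAB; no source used here gives the strand setting, so reads of these partners cannot be told apart.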

How the data were processed

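RNA of hTERT RPE-1 cells was depleted of ribosomal RNA, copied with random primers and sequenced, per the labels' protocols. Tools listed by the submitters' processing notes are Salmon 1.80, Trimmomatic 0.33, FastQC 0.11.9 and edgeR, with build GRCh38 and no roles. The authors deposited estimated counts per gene, which were rounded here; 25 of the 29 members were not whole in some library. Lengths and GC contents came from GENCODE release 29 (98.8% of 13990 genes). edgeR 4.0.16 (TMM, filterByExpr, robust quasi-likelihood fit of 4 group means with 6 residual degrees of freedom, or 4 with the block) tested 13990 genes in 7 contrasts, called at a Benjamini-Hochberg adjusted p under 0.05. DESeq2 1.42.0 and other settings appear in the closing section, and mgcv 1.9.3 fitted length and GC trends, an analysis added after the data were seen. The code was tested on simulated data.

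Titles gave groups and replicate numbers. Deviations of same-numbered siNemp1 and control libraries correlated at 120 kPa (r = 0.34, 0.12 and 0.308 for replicates 1, 2 and 3, above the limit of 0.1) and hardly at 10 kPa (r = 0.0216); the labels do not say what a number shares. Members, lists and tests were chosen with earlier results of these data known. Values in every library are given for members called in any fit or among the 4 smallest p in a contrast; INSIG1, HMGCS1, STARD4 and MVD were added after their values were seen. From the other lists, genes called with the block or among the 3 smallest p are named, except for a result not reported here.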

Additional observations from a re-analysis of the deposited data

How the results depend on the processing

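In the unblocked test over all libraries, 0 members passed in each of the 7 contrasts, also with DESeq2, with median-of-ratios or upper-quartile scaling, with length and GC trends removed, and with each library left out in turn (0 to 0 members). The replicate block gave 2 members at 120 kPa, 4 averaged over stiffnesses and 0 in the other 5 contrasts. With upper-quartile scaling the block gave 3 and 5, and on the libraries at 120 kPa alone 3. Leaving out the replicate 1, 2 or 3 pair under the block gave 4, 0 and 1 members at 120 kPa and 11, 1 and 4 averaged over stiffnesses. With length and GC trends removed the block gave 2 and 2, a setting added after seeing the data. At 10 kPa, fitting the 4 libraries alone gave 7 members, and 5 with the trends removed. Without a filter on low counts the counts were 4 at 120 kPa, 1 at 10 kPa, 2 averaged over stiffnesses, and for stiffness 2 in siNemp1 cells, 1 in controls and 2 averaged over treatments; ACACA was among them each time, with DHCR7, MSMO1 and SCD at 120 kPa (adjusted p = 0.046, 0.022 and 0.043 in edgeR's quasi-likelihood test), DHCR7 averaged over stiffnesses (0.031), and SCD for stiffness in siNemp1 cells and averaged (0.025 and 0.0093). No share of all genes is given for the upper-quartile block, the blocked 120 kPa libraries alone, the left-out pairs or the unfiltered fit. Member counts in those fits are therefore not read as particular to the members. The causes of these shifts were not tested. No log2 fold change named here changed sign while called. Groups of 2 or 3 libraries limit every test, and FDFT1, SREBF1 and FASN were also limited by low counts.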
